A study of Homo sapiens with 11 samples.

Results

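The genes described here are 10 enzymes and carriers around the reaction of AKR1A1, the aldo-keto reductase that turns glucuronate into gulonate. They were taken by symbol (UGP2, UGDH, UXS1, DCXR, CRYL1, SORD, MIOX, ISYNA1, IMPA1 and SLC2A13), and all 10 were found among the 33080 genes of the deposited tables. They were followed in 769-P cells, an established human clear-cell renal carcinoma line, by gene-level RNA sequencing of 11 libraries taken 48 h after lipid transfection. The groups were a first siRNA against AKR1A1 (si1, n = 3), a second siRNA against AKR1A1 (si2, n = 4) and a control siRNA (siSCR, n = 4). The labels give the genotype of si1 and si2 cells as AKR1A1-/- and that of siSCR cells as wild-type, and give 20 µM siRNA for every group. The treatment was a transient knockdown, so si1 and si2 cells still held AKR1A1 transcripts. No group was left untransfected, and nothing in the labels says whether the libraries of a group came from separate cultures, and the spread that the p-values are measured against may be technical.

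In the glucuronate pathway, UGP2 makes UDP-glucose, UGDH oxidises it to UDP-glucuronate, and UXS1 converts UDP-glucuronate to UDP-xylose, which starts the sugar chains of proteoglycans. Free glucuronate is reduced by AKR1A1 to gulonate and carried through L-xylulose to xylitol and D-xylulose by CRYL1, DCXR and SORD, which feeds the pentose phosphate pathway. Myo-inositol is a further source of glucuronate: MIOX, an enzyme known mainly from the proximal tubule of the kidney, opens the inositol ring to give glucuronate, while ISYNA1, IMPA1 and SLC2A13 supply inositol to the cell.

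The promoters of 2 genes are shown because MIOX and UXS1 carried the differences with the lowest p-values against siSCR among the 10 genes. Each is a window of 300 bases, 250 before and 50 after the gene's start, from RefSeq on GRCh38.p14, printed 5′ to 3′ on the gene's strand. Where the table held more than 1 start (3 for UXS1, 2 each for UGP2 and ISYNA1), the one nearest the gene's 5′ end in GENCODE was used, so the motif counts rest on that choice. The RefSeq start of MIOX, 50486859, lies inside the GENCODE gene, whose first base is 50486784. Those of UGDH (39527439) and ISYNA1 (18438133) lie further inside their genes, whose 5′ ends are at 39528311 and 18438301. Capitals mark the motifs searched on both strands, which did not overlap each other in these 2 windows: GGGCGG (the GC box of the SP1 family), TGANTCA (AP-1), GTTAAT (an HNF1 half-site) and TATAAA (the TATA box).
MIOX, chr22:50486609-50486908, plus strand: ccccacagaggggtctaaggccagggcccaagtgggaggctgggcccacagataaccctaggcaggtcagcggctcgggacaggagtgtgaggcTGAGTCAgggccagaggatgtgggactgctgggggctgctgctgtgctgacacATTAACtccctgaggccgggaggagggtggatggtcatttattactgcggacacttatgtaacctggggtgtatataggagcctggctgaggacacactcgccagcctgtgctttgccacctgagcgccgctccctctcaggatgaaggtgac
UXS1, chr2:106194252-106194551, minus strand: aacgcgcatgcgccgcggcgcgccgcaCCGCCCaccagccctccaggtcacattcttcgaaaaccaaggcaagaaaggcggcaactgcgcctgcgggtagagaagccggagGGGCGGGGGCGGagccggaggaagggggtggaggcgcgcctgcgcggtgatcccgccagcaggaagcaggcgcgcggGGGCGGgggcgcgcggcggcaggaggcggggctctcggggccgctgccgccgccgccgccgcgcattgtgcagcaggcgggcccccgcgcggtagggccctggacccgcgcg
Windows were taken for 8 of the 10 genes. SORD had no window in the table, and none was looked up for IMPA1. MIOX was the only one of the 8 without a GGGCGG, against 7 with at least 1 and 45.0% of all 35116 promoters in the table. UXS1 held 4 copies, DCXR 5 and SLC2A13 6, while UGDH, CRYL1 and ISYNA1 held 2 each and UGP2 1. These counts include overlapping matches, at -164 and -159 in DCXR and at -57 and -52 in ISYNA1. The MIOX window held 1 TGANTCA match, 156 bases before the start, a motif present in 7.71% of promoters and in none of the other 7 windows. It also held 1 GTTAAT match, 103 bases before the start. The other GTTAAT match was in the SLC2A13 window, and this motif was in 6.88% of all promoters. None of the 8 windows held TATAAA in these exact letters, which were in 11.5% of promoters. Variants of the TATA box were not searched, and the MIOX window does hold the letters tatata before its start. These are matches of letters and no evidence of binding.

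AKR1A1 transcripts were lower with both siRNAs. Normalised read counts (reads per gene divided by the authors' size factors) were 81.7, 23.6 and 45.1 in si1 libraries, 56.6, 32.1, 48.3 and 46.1 in si2 libraries, and 390, 256, 200 and 242 in siSCR libraries. The log2 fold change was -2.54 for si1 against siSCR (SE 0.42, limma with Benjamini-Hochberg adjustment, adjusted p = 0.0357) and -2.53 for si2 against siSCR (SE 0.24, adjusted p = 0.00218). The si1 call was lost when any library other than siSCR replicate 1 was left out (adjusted p 0.0659 to 0.126). Between the siRNAs AKR1A1 differed by 0.01 on the log2 scale (si2 over si1, SE 0.39, adjusted p = 0.988).

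Depth was 2108546 to 5939514 reads on genes per library. Of 14 renal markers, 10 reached a normalised count of 10 in some library, PAX8 among them, while CA9, a marker of this carcinoma, was at 0 in every library; all 4 endothelial markers were at 0, and single leukocyte (CD68) and fibroblast (COL1A1) markers were above 10. A pair of libraries stood apart. Mitochondrially encoded genes took 6.57 to 11.1% of the reads in si1 libraries, 4.59 to 5.12% in si2 libraries and 3.46 to 4.46% in siSCR libraries other than replicate 1, where they took 12.1% (Wilson 95% interval 12.1 to 12.2%, counting error only). In si1 replicate 2, 11618 genes had a read, against 13154 to 14355 in the others. Of the 10 genes, siSCR replicate 1 lay above the other siSCR libraries for 3 (MIOX, ISYNA1 and CRYL1) and below them for 4 (UGDH, DCXR, SORD and IMPA1). The same count over all genes was not made, and any 1 library of 4 is often the highest or lowest by chance. These are bulk libraries, in which fewer cells of a type and less RNA per cell cannot be told apart.

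UXS1 was by far the most abundant of the 10 transcripts and the sugar carrier SLC2A13 the least. On the scale of normalised counts per kb of exon, the siSCR levels were 326 ± 13.2 for UXS1, 115 ± 44.8 for UGDH, 52.2 ± 19.6 for DCXR, 28.1 ± 2.23 for UGP2 and 25.6 ± 8.56 for ISYNA1 (SD, n = 4). MIOX followed at 24.3 ± 13.9, CRYL1 at 17.6 ± 4.33, IMPA1 at 17.0 ± 1.82, SORD at 3.25 ± 1.54 and SLC2A13 at 1.28 ± 0.535 (SD, n = 4). In this order the ranges of neighbours were apart in 2 places, between UXS1 and UGDH and between IMPA1 and SORD, and overlapped at all other steps. UXS1 held 48.2 to 63.3% of the summed per-kb level of the 10 genes over the 11 libraries. The per-kb level of MIOX was 80.4 ± 16.3 in si1 libraries (SD, n = 3) and 37.7 ± 10.8 in si2 libraries (SD, n = 4), against 24.3 ± 13.9 in siSCR libraries.

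**Figure D1:**
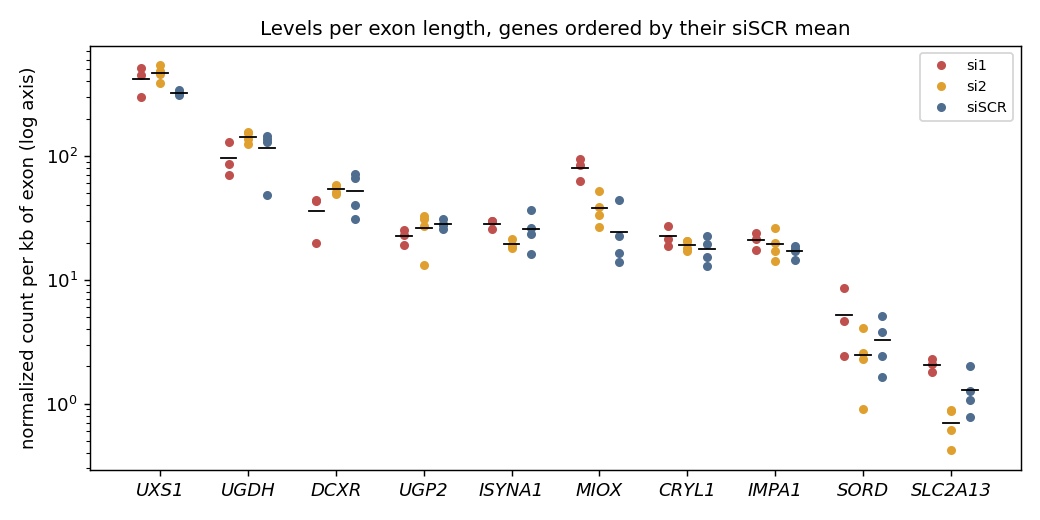
Normalised count per kb of exon (log axis) of the 10 genes in each library, ordered by the siSCR mean; points are libraries of si1, si2 and siSCR, from left to right within a gene, and bars are group means. UXS1 stands alone at the top, with a siSCR mean of 326, and SORD and SLC2A13 lie at the bottom, with siSCR means of 3.25 and 1.28.

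None of the 10 genes passed an adjusted p of 0.05 in limma for si1 against siSCR, where 1.72% of 10517 tested genes did. At an unadjusted p under 0.05 there were 2 of 10 (MIOX and SLC2A13), beside 23.9% of all genes tested. The 2 genes whose groups did not overlap were MIOX, higher in si1, and UGP2, lower in si1, beside 21.7% of all genes. For si2 against siSCR, 9 of the 10 genes passed the filter on low values and none of them passed the test, beside 3.12% of 10249 genes called. UXS1 was the 1 gene of the 9 with an unadjusted p under 0.05 (19.6% of all genes) and the 1 gene whose groups did not overlap (12.6% of all genes). Between the siRNAs, SLC2A13 passed the filter only through si1, where it was high, and is left out of the counts. Of the other 9 genes, 1 was called, MIOX, lower in si2 than in si1, beside 6.74% of 10448 genes called in all and 3.02% called lower. For 4 of the 9 the unadjusted p was under 0.05 (25.4% of all genes), and for 3 the groups did not overlap (25.0% of all genes). The median log2 fold change of the members tested was 0.31 with si1 and 0.14 with si2, each against siSCR, and -0.13 between si2 and si1 (9 genes), beside -0.03, -0.01 and 0.03 over all genes. The comparisons with siSCR share their control libraries.

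Against siSCR, other call rules reached MIOX and UXS1. In the authors' deposited table, MIOX had a log2 fold change of 1.43 for si1 against siSCR at an adjusted p of 0.000891, and UXS1 had 0.51 for si2 against siSCR at an adjusted p of 0.00439. Each was the 1 member called there in its comparison, beside 1050 (3.17%) and 617 (1.87%) of the 33080 genes. Only 17626 of these genes had a read in any of the 11 libraries, so the shares among genes with reads were higher. Linear models on the recovered reads with precision weights (limma's voom) also called MIOX alone for si1 (adjusted p = 0.0181) and UXS1 alone for si2 (adjusted p = 0.0389), and so did limma with a mean trend (adjusted p = 0.0188 and 0.0479). For si1 and si2 in turn, voom called 5.53% and 4.52% of all genes tested. The mean trend called 6.77% and 4.70%, so both rules called more genes in general than the main fit.

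**Figure D2:**
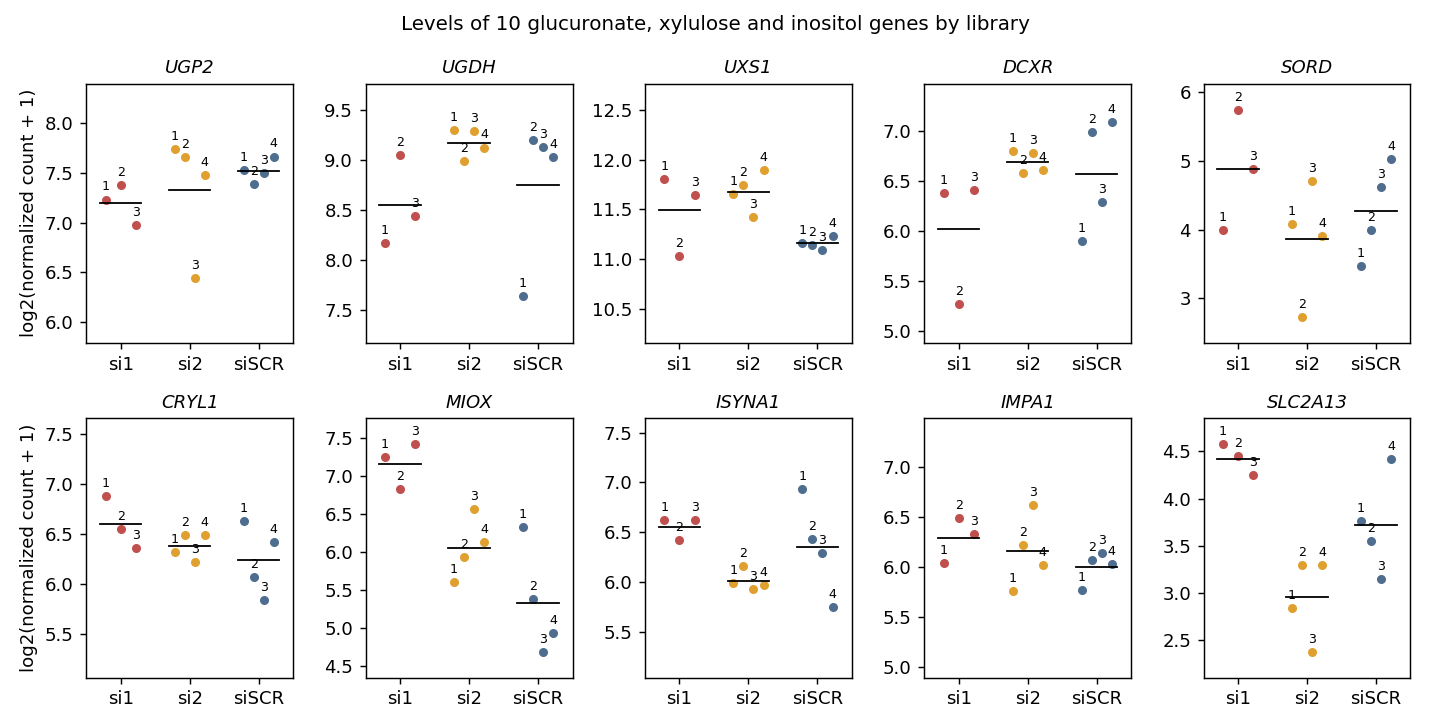
Level of each of the 10 genes, log2(normalised count + 1), in si1, si2 and siSCR libraries; points are libraries with their replicate number and bars are group means, each panel with its own range. MIOX in the 3 si1 libraries lies above all siSCR libraries, and SLC2A13 in the 4 si2 libraries lies below all si1 libraries.

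**Figure D3:**
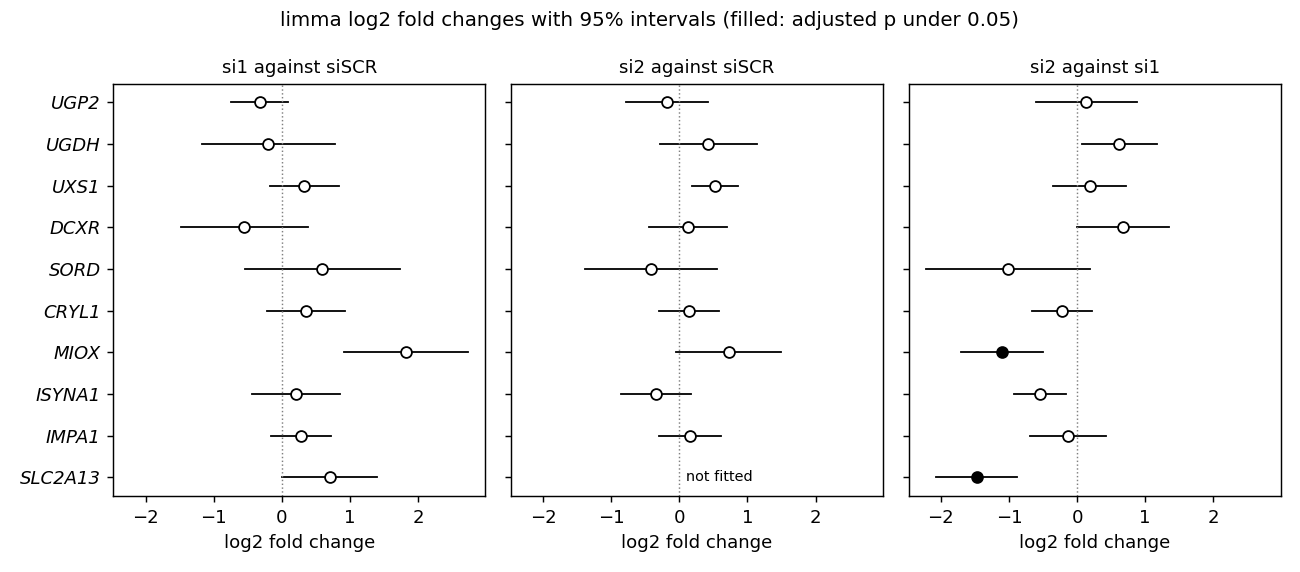
limma log2 fold changes of the 10 genes with 95% intervals in the 3 comparisons; filled points have an adjusted p under 0.05. The filled points are MIOX (-1.10) and SLC2A13 (-1.47), both in si2 against si1, where SLC2A13 passed the filter only through si1; it was not fitted for si2 against siSCR.

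MIOX (ENSG00000100253, chromosome 22, 50486784 to 50490648, plus strand, GRCh38) had the largest fold change of the 10 genes against siSCR. Its normalised counts were 151, 112 and 170 in si1 libraries, 47.8, 60.2, 93.5 and 69.5 in si2 libraries, and 79.8, 40.6, 24.9 and 29.5 in siSCR libraries, from 19 to 172 reads per library. All 3 si1 libraries were above all libraries of both other groups, and the si2 libraries overlapped the siSCR range only through siSCR replicate 1. The difference of si1 from siSCR was 1.83 on the log2 scale (SE 0.39, 95% interval 0.92 to 2.74), a 3.55-fold higher level, at an adjusted p of 0.0607 that missed the threshold. For si2 against siSCR it was 0.73 (SE 0.35, adjusted p = 0.284). MIOX was lower in si2 than in si1 by limma, at -1.10 (SE 0.26, interval -1.71 to -0.50, adjusted p = 0.0460). That call held in 2 of 7 leave-outs (without si1 replicate 2 and without si2 replicate 3), with differences of -1.27 to -0.95.

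Whether the main fit called MIOX against siSCR depended on siSCR replicate 1, the library of highest mitochondrial share. The si1 difference lay between 1.47 and 2.16 under all settings, and some other settings called it with siSCR replicate 1 kept. Without that library MIOX was called against siSCR for both siRNAs, at 2.16 for si1 (adjusted p = 0.00951) and 1.06 for si2 (adjusted p = 0.0252). Calls over all genes rose as well, to 13.5% for si1 and 14.4% for si2, from 1.72% and 3.12% with that library. When the mitochondrial share entered the fit, MIOX was also called for both, at 1.47 for si1 (adjusted p = 0.0415) and 0.92 for si2 (adjusted p = 0.0360). The difference of si2 from si1 was -0.96 there and no longer called (adjusted p = 0.248). Every si1 library had a higher share than every si2 library, so share and siRNA cannot be told apart between these groups. Over all genes, that fit called 2.26% for si1 and 13.1% for si2, each against siSCR, and 1.60% between the siRNAs. The si1 libraries, in replicate order, had mitochondrial shares of 11.1, 6.57 and 7.82%. The lowest MIOX count of the group was at the lowest share, but the highest, 170 in replicate 3, was not at the highest share. In si2 the library of lowest share, replicate 3 at 4.59%, had the highest MIOX count of its group, 93.5.

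**Figure D4:**
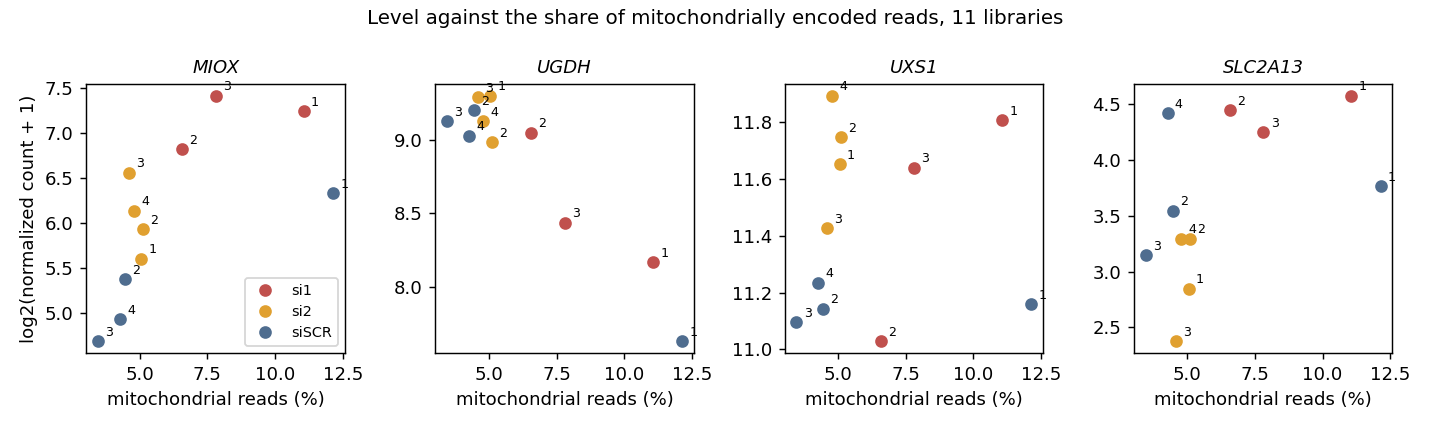
Level, log2(normalised count + 1), of MIOX, UGDH, UXS1 and SLC2A13 against the percentage of reads on mitochondrially encoded genes, for si1, si2 and siSCR libraries numbered by replicate. siSCR replicate 1, at 12.1%, has the highest MIOX level and the lowest UGDH level of its group.

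ISYNA1 (ENSG00000105655), which makes inositol 3-phosphate from glucose 6-phosphate, had normalised counts of 97.5, 84.6 and 97.7 in si1 libraries, 62.8, 70.6, 59.9 and 61.7 in si2 libraries, and 121, 85.5, 77.2 and 53.0 in siSCR libraries. The si2 libraries lay below all si1 libraries, and siSCR spanned both. The log2 fold changes were 0.20 for si1 against siSCR (SE 0.28, adjusted p = 0.678), -0.34 for si2 against siSCR (SE 0.23, adjusted p = 0.460) and -0.54 for si2 against si1 (SE 0.16, interval -0.92 to -0.16, adjusted p = 0.0886). Of the exon bases of ISYNA1, 5.33% overlap SSBP4 on the opposite strand, and strandedness is not given in the sources used here, so a part of its reads could come from SSBP4. The ratio of MIOX to ISYNA1, on the per-kb scale, was 2.83, 2.43 and 3.18 in si1 libraries, 1.39, 1.56, 2.86 and 2.06 in si2 libraries, and 1.21, 0.869, 0.589 and 1.02 in siSCR libraries. In this ratio all libraries of both siRNAs were above all siSCR libraries. The per-kb ratio of MIOX to UGDH did not separate the groups in this way. There siSCR replicate 1, at 0.91, was above si1 replicate 2 (0.48) and above all si2 libraries (0.17 to 0.34). The other siSCR libraries were below all libraries of both siRNAs. No test was applied to either ratio.

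SLC2A13 (ENSG00000151229), a proton-coupled carrier that brings myo-inositol into the cell, was the rarest of the 10 transcripts. It had normalised counts of 22.8, 20.8 and 18.0 in si1 libraries, 6.19, 8.83, 4.20 and 8.81 in si2 libraries, and 12.6, 10.7, 7.85 and 20.4 in siSCR libraries. Behind these were 12 to 26 reads in si1, 4 to 17 in si2 and 6 to 20 in siSCR, so counting error is a large part of each value. The si2 libraries lay below all si1 libraries, and siSCR overlapped both. Between si2 and si1 the log2 fold change was -1.47 (SE 0.26, interval -2.06 to -0.88, limma adjusted p = 0.0199). This p is not read as a result: 0 of 4 si2 libraries and all 3 si1 libraries reached a count of 10, so the gene entered the fit only through the group where it was high. With no filter the adjusted p was 0.0554. When the mitochondrial share entered the fit it was 0.148, but share and siRNA cannot be told apart between these groups. Against siSCR, si1 differed by 0.71 (SE 0.30, adjusted p = 0.204). For si2 against siSCR the gene fell under the filter on low values, and the difference in mean log2 level was -0.76 (exact two-sided permutation test over 70 splits, p = 0.0857). Leaving out a library in turn gave differences of -1.58 to -1.28. Of its exon bases, 0.698% overlap C12orf40 on the opposite strand.

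IMPA1 (ENSG00000133731), the phosphatase that frees inositol from inositol monophosphate, showed the smallest differences of the inositol genes between the siRNAs. It ranged from 65.0 to 88.8 in si1 libraries, from 53.1 to 97.7 in si2 libraries and from 53.7 to 69.3 in siSCR libraries. The log2 fold changes were 0.29 for si1 against siSCR (interval -0.15 to 0.73, adjusted p = 0.381), 0.15 for si2 against siSCR (interval -0.30 to 0.60, adjusted p = 0.737) and -0.13 for si2 against si1 (interval -0.69 to 0.42, adjusted p = 0.768). These intervals leave room for changes of up to 0.73 on the log2 scale.

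UXS1 (ENSG00000115652, chromosome 2, 106093303 to 106194339, minus strand) had normalised counts of 3582, 2090 and 3190 in si1 libraries, 3218, 3436, 2750 and 3802 in si2 libraries, and 2285, 2262, 2187 and 2411 in siSCR libraries, from 1506 to 7335 reads. All 4 si2 libraries were above all siSCR libraries, whose values differed little (2286 ± 92.9, SD, n = 4). For si1, replicates 1 and 3 were above the siSCR range and replicate 2, the library with the fewest detected genes, was below it. The difference of si2 from siSCR was 0.52 on the log2 scale (SE 0.15, interval 0.18 to 0.86), a 1.43-fold higher level, at an adjusted p of 0.0980. For si1 against siSCR it was 0.33 (SE 0.22, interval -0.18 to 0.85, adjusted p = 0.379), and for si2 against si1 0.19 (SE 0.23, interval -0.35 to 0.72, adjusted p = 0.653). Without siSCR replicate 1 the si2 difference was 0.52 (adjusted p = 0.0540), and with mitochondrial share in the fit 0.52 (adjusted p = 0.0468).

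UGDH (ENSG00000109814), whose product UXS1 uses, had normalised counts of 286, 529 and 346 in si1 libraries, 629, 506, 625 and 557 in si2 libraries, and 197, 588, 559 and 521 in siSCR libraries. siSCR replicate 1 was far below the rest of its group, and the si1 libraries of higher mitochondrial share, replicates 1 and 3, were lower than replicate 2. The log2 fold changes were -0.20 for si1 against siSCR (SE 0.42, adjusted p = 0.805), 0.43 for si2 against siSCR (SE 0.32, adjusted p = 0.508) and 0.62 for si2 against si1 (SE 0.24, interval 0.08 to 1.17, adjusted p = 0.151). When the mitochondrial share entered the fit, the si1 value turned to 0.24 and the si2 against si1 value to -0.01. Between si2 and si1, share and siRNA cannot be told apart. Without si1 replicate 2 the difference of si2 from si1 was called, at 0.87 (adjusted p = 0.0389). UGDH shares 7.24% of its exon bases with UGDH-AS1 on the opposite strand. The per-kb ratio of UXS1 to UGDH was 7.21, 2.28 and 5.32 in si1 libraries, 2.95, 3.91, 2.54 and 3.93 in si2 libraries, and 6.67, 2.22, 2.26 and 2.66 in siSCR libraries. The high ratios were in si1 replicates 1 and 3 and siSCR replicate 1, the libraries whose mitochondrial shares were 11.1, 7.82 and 12.1%, and the part of that share in the ratio was not tested.

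UGP2 (ENSG00000169764) had normalised counts of 149, 165 and 125 in si1 libraries, 213, 201, 86.1 and 178 in si2 libraries, and 183, 167, 179 and 202 in siSCR libraries. The si1 libraries lay just below all siSCR libraries, with a log2 fold change of -0.32 (SE 0.18, interval -0.74 to 0.09, adjusted p = 0.300). In si2, replicate 3 was low and the others were within or just above the siSCR range, and the differences were -0.19 against siSCR (SE 0.27, adjusted p = 0.764) and 0.14 against si1 (SE 0.32, adjusted p = 0.824).

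**Figure D5:**
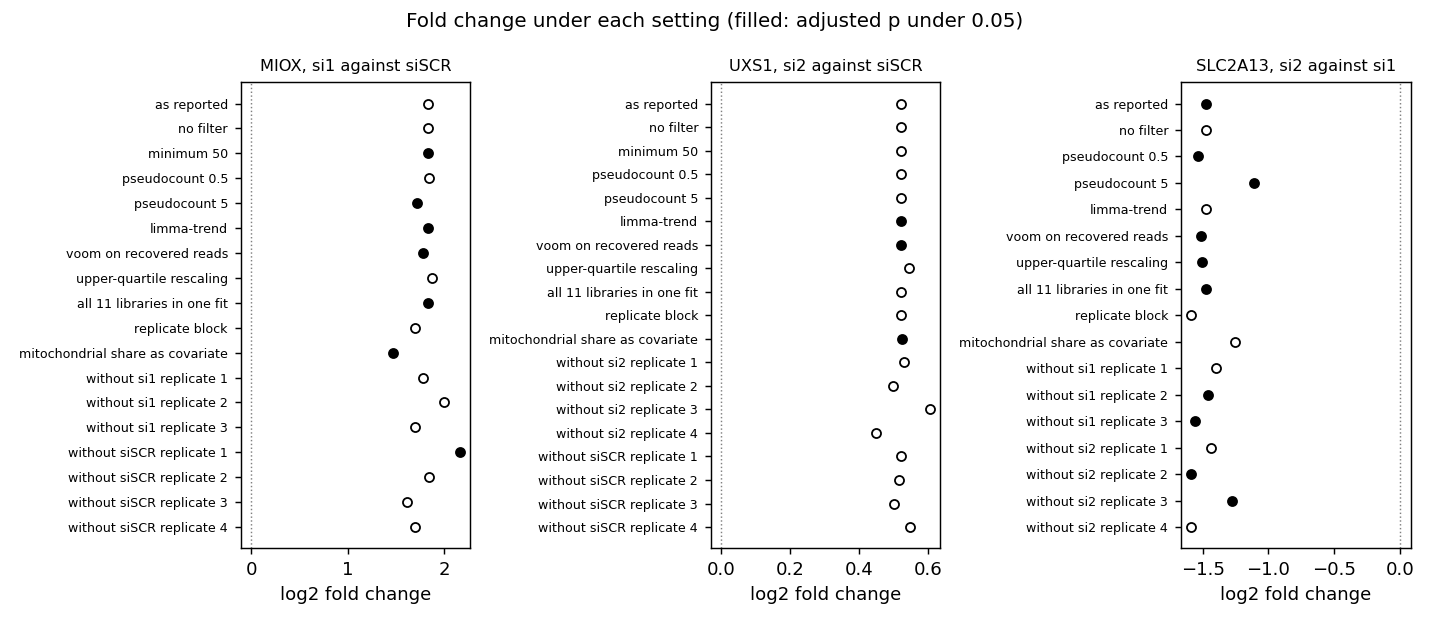
log2 fold change of MIOX (si1 against siSCR), UXS1 (si2 against siSCR) and SLC2A13 (si2 against si1) under each setting; filled points have an adjusted p under 0.05. The MIOX values lie between 1.47 and 2.16, the UXS1 values between 0.45 and 0.61 and the SLC2A13 values between -1.58 and -1.11.

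Among the enzymes downstream of gulonate, DCXR (ENSG00000169738), which reduces L-xylulose to xylitol, had normalised counts of 82.5, 37.5 and 84.2 in si1 libraries, 111, 94.7, 109 and 96.9 in si2 libraries, and 58.8, 126, 77.2 and 135 in siSCR libraries. Every si2 library was above every si1 library, and siSCR overlapped both. The difference of si2 from si1 was 0.67 (SE 0.29, interval 0.00 to 1.35, adjusted p = 0.195). It was -0.55 for si1 against siSCR (SE 0.40, adjusted p = 0.423) and 0.13 for si2 against siSCR (SE 0.26, adjusted p = 0.839).

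CRYL1 (ENSG00000165475), the gulonate dehydrogenase, ranged from 81.1 to 117 in si1 libraries, from 73.5 to 89.1 in si2 libraries and from 56.2 to 98.2 in siSCR libraries, and its groups overlapped in every comparison. Its log2 fold changes were 0.36 for si1 against siSCR (interval -0.22 to 0.93, adjusted p = 0.399), 0.14 for si2 against siSCR (interval -0.30 to 0.57, adjusted p = 0.757) and -0.22 for si2 against si1 (interval -0.66 to 0.22, adjusted p = 0.506).

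SORD (ENSG00000140263), which oxidises sorbitol and xylitol, had counts of 14.9, 52.7 and 28.6 in si1 libraries, 15.9, 5.62, 25.2 and 14.0 in si2 libraries, and 10.1, 15.0, 23.5 and 31.6 in siSCR libraries, with 7 to 38 reads behind them. The groups overlapped in every comparison. Its log2 fold changes were 0.60 for si1 against siSCR (SE 0.49, adjusted p = 0.478), -0.42 for si2 against siSCR (SE 0.44, adjusted p = 0.651) and -1.02 for si2 against si1 (SE 0.53, adjusted p = 0.269). SORD values are uncertain in themselves: SORD2P, a near-identical copy, matches 47.3% of the SORD transcript at 98.9% identity, so counting could have split their reads, and SORD2P was not analysed here. AC122108.1 and AC091117.1 match 4.81% of it at 99.6% identity and were at 0 in every library, and AC091117.1 also overlaps 6.92% of the exon bases of SORD on the opposite strand.

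The genes around the 10 were read from 7 lists. With si1, 2 of 88 listed genes tested were called, beside 1.72% of all genes. They were AKR1A1 itself and TKT, the transketolase of the pentose phosphate pathway, which fell. TKT averaged 481 ± 98.9 in si1 libraries (SD, n = 3) and 1227 ± 105 in siSCR libraries (SD, n = 4), a log2 fold change of -1.37 (SE 0.20, limma adjusted p = 0.0318), and it was 1 of the 10 genes of its list. AKR1A1 was 1 of 7 tested in the list of xylulose and polyol genes. Over all genes, at most 4 were called in this comparison when a library other than siSCR replicate 1 was left out. No gene was called among 13 tested for UDP-glucose supply and use, 5 for glucuronidation, 10 nucleotide sugar transporters, 21 for proteoglycan linkage and glucuronic acid polymers, and 22 for inositol supply and phosphates, where 4, 2, 0, 3 and 8 had an unadjusted p under 0.05 (23.9% of all genes). The listed genes of highest level there did not pass: UGCG was at 0.40 (adjusted p = 0.252), UGT2B7 at -0.20 (adjusted p = 0.552), SLC35D2 at -0.45 (adjusted p = 0.411), EXT1 at 0.61 (adjusted p = 0.139) and IMPAD1 at 0.09 (adjusted p = 0.807). The medians of the 7 lists lay between -0.20 and 0.30 on the log2 scale, beside -0.03 over all genes.

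With si2, 5 of 88 listed genes tested were called, beside 3.12% of all genes: AKR1A1, and 4 others that were all higher than in siSCR. UGCG, which uses UDP-glucose to make glucosylceramide, averaged 3886 ± 206 in si2 libraries and 1976 ± 302 in siSCR libraries (SD, n = 4 each), a log2 fold change of 0.99 (SE 0.16, limma adjusted p = 0.0125), as 1 of 13 tested genes of its list. GXYLT1, which uses UDP-xylose, the product of UXS1, to extend sugars on Notch-type repeats, averaged 220 ± 44.2 in si2 libraries and 126 ± 17.4 in siSCR libraries, at 0.79 (SE 0.18, adjusted p = 0.0485), as 1 of 21. In the inositol list 2 of 23 rose, the inositol pyrophosphate kinase PPIP5K2, at 1.22 (SE 0.23, adjusted p = 0.0256), and the inositol polyphosphate phosphatase INPP5A, at 0.90 (SE 0.16, adjusted p = 0.0203). None was called among 4 glucuronidation genes, 10 nucleotide sugar transporters and 10 pentose phosphate genes, where 2, 3 and 0 had an unadjusted p under 0.05 (19.6% of all genes). SLC35B4, a carrier of UDP-xylose, had 159 ± 8.07 in si2 libraries and 114 ± 18.8 in siSCR libraries, at 0.49 (SE 0.17, adjusted p = 0.140). The list medians lay between -0.09 and 0.58, beside -0.01 over all genes, and the highest was that of the 4 glucuronidation genes.

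Between the siRNAs, 5 of 88 listed genes tested were called (5.68%), near the 6.74% of all genes. GYS1, the muscle-type glycogen synthase that uses UDP-glucose, was higher in si2 at 1.48 (SE 0.36, limma adjusted p = 0.0473), as was PGM2L1 at 1.06 (SE 0.21, adjusted p = 0.0283), while the hexokinase HK1 was lower at -0.79 (SE 0.18, adjusted p = 0.0376), which made 3 of 14. Of the pentose phosphate genes, TKT at 1.33 (SE 0.27, adjusted p = 0.0297) and the phosphoribosyl pyrophosphate synthetase PRPS1 at 1.25 (SE 0.27, adjusted p = 0.0346) were higher in si2, 2 of 10. No gene was called among 5 tested for glucuronidation, 10 transporters, 21 for proteoglycans, 7 for xylulose and polyols and 21 for inositol, where 3, 2, 5, 2 and 5 had an unadjusted p under 0.05 (25.4% of all genes). The list medians lay between -0.19 and 0.69, beside 0.03 over all genes. AKR1B1, the aldose reductase that makes sorbitol, the substrate of SORD, was not called at -0.47 (SE 0.16, adjusted p = 0.116). Its counts were 1922, 1798 and 1788 in si1 libraries, 1251, 1287, 1460 and 1313 in si2 libraries, and 2253, 850, 825 and 828 in siSCR libraries. As with MIOX, siSCR replicate 1 lay far above the rest of its group for AKR1B1.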

How the data were processed

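Gene expression was measured by RNA sequencing in 11 libraries of 769-P cells. Per the submitters' processing notes, the authors used cutadapt, FastQC, STAR, GRCh38, HTSeq and DESeq2; the sources used here give neither versions nor strandedness. For each siRNA against siSCR, the authors deposited log2 values per library, the log2 of the count normalized by relative log expression (RLE) plus 1. Undone, 100% of the values fell within 0.01 read of whole multiples of 1 step per library, so whole reads were recovered and summed for depth. The authors deposited beside these, per the file headers, a mean normalized signal, log2 fold changes, p-values and adjusted p-values, used only where their table is named. Both tables hold identical siSCR values.

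Each siRNA was set against siSCR and si2 against si1, fitted with limma 3.58.1 in R 4.3.3 on log2(normalized count + 1), with group as the only term. Fold changes on this scale understate those of low genes. A gene was kept if the number of libraries with a normalized count of 10 or more reached the size of the smaller group, and called where its Benjamini-Hochberg adjusted p, over all genes kept, was under 0.05. Group errors are SDs, those of fold changes limma's SEs, and tests are two-sided. Exact permutation tests double the smaller tail. The fitting steps were tested on simulated data. Positions and exon lengths are from GENCODE 29 (GRCh38), and copies were searched with blastn 2.17.0.

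The members and the lists were chosen with earlier results of these data known. Named were all members, AKR1A1, any gene or pseudogene overlapping or resembling a member, and per list and comparison up to 4 called genes with the largest fold change or, with none called, those of highest level, 2 per list, of which the text gives some; AKR1B1 and SLC35B4 come under this rule. Alternatives were no filter, a minimum of 50, pseudocounts of 0.5 and 5, limma-trend, voom, upper-quartile rescaling, all 11 libraries in one fit, the replicate number as a block, the mitochondrial share as a covariate and leaving out each library.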

Additional observations from a re-analysis of the deposited data

Results flagged for a closer look

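UGDH in siSCR replicate 1 had a normalised count of 197, and its siSCR companions had 521 to 588. On the scale of log2(normalised count + 1), its gap to the nearest of them was 0.890 of the group's range, above the limit for 4 libraries. Chance gives such a gap in about 1 of 20 groups, so among several genes and groups 1 such gap can arise by chance alone. The same library had the highest mitochondrial share of all 11, at 12.1%, and the part of this in the UGDH value was not tested.

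By the test of si2 against si1 itself, the effects of the siRNAs differed for MIOX, by -1.10 on the log2 scale (limma adjusted p = 0.0460), a call that most leave-outs lost. SLC2A13 differed by -1.47 (adjusted p = 0.0199), but it passed the filter only through si1, and with no filter its adjusted p was 0.0554.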

How the results depend on the processing

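For si1 against siSCR, 181 genes were called; the number was 5 with no filter, 567 at a minimum of 50, 414 with a pseudocount of 5, 712 with limma-trend, 582 with voom, 1141 with all 11 libraries in one fit and 0 to 1399 over the leave-outs, where the highest was without siSCR replicate 1 and the others gave at most 4. One member, MIOX, was called instead of 0 at the minimum of 50, with a pseudocount of 5, limma-trend, voom, all 11 libraries and the mitochondrial covariate, and 0 to 1 in the leave-outs. For si2 against siSCR, 320 genes were called, with 108 under no filter, 482 under limma-trend, 1343 under the mitochondrial covariate and 88 to 1496 in the leave-outs, the highest without siSCR replicate 1 (the others 88 to 160); members called were 1 under limma-trend and voom, 2 under the covariate and 0 to 1 in the leave-outs, MIOX without siSCR replicate 1. For si2 against si1, 704 genes were called, with 230 under no filter, 1064 under limma-trend, 1172 under voom, 167 under the covariate and 120 to 803 in the leave-outs; members called were 0 under no filter and the covariate, 1 at the minimum of 50 (MIOX), under limma-trend (MIOX) and with all 11 libraries (SLC2A13), and 0 to 3 in the leave-outs. Counts for si2 against si1 include SLC2A13, which passed the filter only through si1. SORD and SLC2A13 were below the minimum of 50. Upper-quartile rescaling gave 110 higher and 95 lower for si1 against siSCR, where 83 and 98 were counted without it, and voom gave 329 and 253. For si2 against si1, upper-quartile rescaling gave 354 and 353, where 388 and 316 were counted without it.

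Same-numbered libraries correlated, over genes, in their deviations from the group means at 0.39, 0.10 and 0.13 for si1 and siSCR, at 0.10, -0.03, 0.16 and 0.08 for si2 and siSCR, and at 0.10, -0.00 and 0.04 for si2 and si1. Not every pair passed 0.1, but this cannot tell whether same-numbered libraries shared a batch, which was not tested. Replicate 1 of si1 correlated at 0.39 with siSCR replicate 1, and at -0.24, -0.28 and -0.12 with siSCR replicates 2, 3 and 4. A replicate block, fitted only on libraries whose number both groups held, gave 0 genes with si1 and 175 with si2, each against siSCR. Between si2 and si1 it gave 6, with 0 members called. The block dropped siSCR replicate 4 for si1 against siSCR, and si2 replicate 4 between the siRNAs. Without a block, leaving out these libraries gave 0 and 120 genes. For si1 against siSCR, the block and the loss of that library thus cannot be told apart. Not every library correlated best with its own number.

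Signs turned for members without a call, and for AKR1A1 between the siRNAs, where both groups were alike; the cause was not tested. With the mitochondrial covariate, UGDH was 0.24 for si1 against siSCR and -0.0079 for si2 against si1, where CRYL1 was 0.12; AKR1A1 between the siRNAs was -0.10 with voom and -0.018 with upper-quartile rescaling. Over the leave-outs, si2 against siSCR ranged from -0.32 to 0.11 for UGP2, -0.0021 to 0.29 for IMPA1 and -0.095 to 0.30 for DCXR, and si2 against si1 from -0.43 to 0.45 for AKR1A1, -0.044 to 0.34 for UXS1 and -0.29 to 0.00023 for IMPA1. Of the other fold changes of the 10 genes under these settings, 460 kept direction and side of the threshold, 13 gained a call and 16 lost it. AKR1A1 kept its call for si2 in all 18 settings and for si1 in 9 of 17. Depth limits SLC2A13 and SORD most, at 4 to 26 and 7 to 38 reads per library.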
